A study of Mus musculus with 6 samples.

Results

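The arrays carried 7 probes for 6 genes of the cystatin superfamily, *Cst3*, *Cst6*, *Cstb*, *Stfa1*, *Stfa2* and *Stfa3*, among 55681 distinct non-control probes under 34298 gene names. The members are all probes with these gene names in the array files, 1 probe for each gene except *Stfa1*, which has 2. Each probe was a single spot, and none of the 7 spots was marked as an outlier on any array. The samples were organoids at passage 0, grown in Matrigel from the esophagus or the stomach corpus of wild-type C57BL/6 mice. Per the methods, cells of minced and digested esophageal tissue were seeded, and isolated glands of the corpus. All 6 samples carry the label Control with no other treatment named. Both tissues of the same 3 mice, numbered 1, 2 and 4, were put on 1 array each, which gave 3 esophagus and 3 stomach arrays. All organoids were harvested on day 8 of culture except the stomach organoids of mouse 4, harvested on day 7. Stomach medium held WNT3A- and R-spondin1-conditioned medium and gastrin, which esophagus medium lacked, and esophagus medium held forskolin. Tissue, preparation and medium therefore cannot be told apart in any comparison here. In total RNA from whole cultures, fewer cells of a type and less RNA per cell cannot be told apart either. The age of the mice is not given in the labels.

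Cystatins are tight-binding, reversible inhibitors of papain-like cysteine proteases, the lysosomal cathepsins. Stefins, also called type 1 cystatins, lack a signal peptide and act mainly inside the cell, where *Cstb* encodes stefin B. Type 2 cystatins are secreted, among them cystatin C (*Cst3*), made by most cell types, and cystatin M/E (*Cst6*), which in cornifying epithelia restrains cathepsin L and legumain and so bears on the transglutaminases that cross-link the cornified envelope. The mouse has a cluster of stefin A genes on chromosome 16, with closely related copies, and stefin A is a known component of the cornified envelope of squamous epithelia. These copies make the identity of each probe part of the result.

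The probes of the stefin cluster are 60 bases long and carry the names of genes that resemble each other, so the most similar stretches are shown first. Each line gives 30 bases of a probe, 5′ to 3′, with capitals for the run shared without mismatch with the other probe of the pair. The position and strand of the whole probe in mm9 are those of the array files.
Stfa3, chr16:36450693-36450752, minus strand: taagGGTTACCAGACTAACAAAACCAagac
Gm5483, chr16:36188043-36188102, plus strand: ttcatGGTTACCAGACTAACAAAACCAgga
BC100530, chr16:36359525-36359584, minus strand: ctaCTTCTAAGCAGCAAATTCTAAAGTGac
2010005H15Rik, chr16:36257452-36257511, plus strand: CTTCTAAGCAGCAAATTCTAAAGTGtcctg
Stfa2l1, chr16:36160118-36161876, plus strand: aAATTACTTCATTAAGATGGATGTAGGacg
ENSMUST00000077110.4, chr16:36136075-36137745, plus strand: cAATTACTTCATTAAGATGGATGTAGGtag
Stfa1, chr16:36285398-36285457, plus strand: attcagccatgaataaagaaatattcctca
Stfa2, chr16:36404032-36404089, minus strand: atgcggccatcaataaagaagcatttttga
The first 6 lines form 3 pairs. *Stfa3* and *Gm5483* shared a run of 22 bases, *BC100530* and *2010005H15Rik* a run of 25 bases, and *Stfa2l1* and the transcript ENSMUST00000077110.4 a run of 26 bases and 50 of 60 bases in all. In the last 2 lines nothing is in capitals, because the *Stfa1* and *Stfa2* probes shared no run over 9 bases. Aligned without gaps, these probes still matched at 40 of 58 bases (69%). The same *Stfa1* probe matched that of *2010005H15Rik* at 27 of 37 bases (73%). What part related transcripts had in the *Stfa1* and *Stfa2* signals was not tested. Among the 7 member probes, no pair shared a run longer than 9 bases. Against all other probes of the array, on either strand, *Stfa3* was the single member probe with a shared run of 20 bases or more, and *Gm5483* was its single partner. Probes were compared with probes and not with whole transcripts. A match of a probe to a part of a related transcript that no probe covers was therefore not tested. Aligned without gaps, the *Stfa3* probe matched that of *Gm5483* at 30 of 35 bases (85.7%) and that of *BC100530* at 35 of 41 bases (85.4%), with a longest run of 14 bases for the latter, and the part of *BC100530* transcripts in the *Stfa3* signal was not tested.

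Of the 7 member probes, 4 were called higher in esophageal organoids at an adjusted p under 0.05 (limma, Benjamini-Hochberg over all probes), against 5.94% of all probes. These were *Stfa3*, *Cst6*, *Cstb* and 1 of the 2 *Stfa1* probes. Only *Cst3* was called higher in stomach organoids, where 6.22% of all probes were, and *Stfa2* and the other *Stfa1* probe were not called. Counting both directions, 5 of the 7 probes were called, against 12.2% of all probes. The 3 values of one tissue lay wholly above those of the other for 5 member probes, against 28.6% of all probes. The median log2 fold change, here always esophagus minus stomach, was 1.26 over the 7 member probes and 0.02 over all probes. The former is the value of a single probe, the first of *Stfa1*, whose stomach arrays were not well above background. The median moved with the settings, for example to 0.80 with a normexp offset of 50 and to 0.89 without esophagus replicate 2. With the processed signal at 75th percentile scaling it was 2.85, there the value of *Cstb*, while the first *Stfa1* probe was at 3.61. By the scanner software's own flag, 6 of the 7 probes were well above background throughout 1 tissue or both, and the exception was the second *Stfa1* probe. All levels below are the authors' quantile-normalized log2 signals, and levels of different probes are not set against each other, because probes differ in how brightly they report a transcript.

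**Figure D1:**
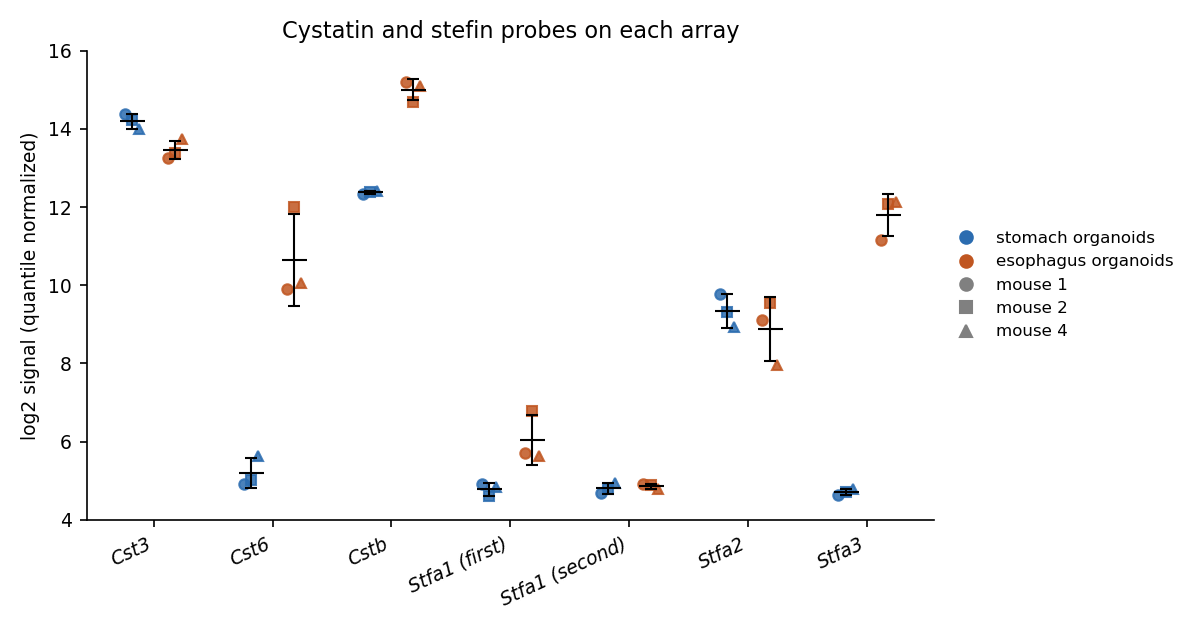
Each point is the log2 signal of a member probe on 1 array, with stomach organoids in blue, esophageal organoids in orange and the mouse given by the symbol; the bar is the mean and SD of 3 arrays. The 3 esophagus arrays lie above the 3 stomach arrays for *Cst6*, *Cstb*, *Stfa3* and the first *Stfa1* probe and below them for *Cst3*, while *Stfa2* and the second *Stfa1* probe overlap; heights of different probes are not comparable.

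*Stfa3*, a stefin A of the cluster, was well above background in esophageal organoids alone. Its probe (NM_025288) read 4.63, 4.71 and 4.78 in the stomach organoids of mice 1, 2 and 4 and 11.16, 12.07 and 12.13 in their esophageal organoids. No stomach array was well above background, all 3 esophagus arrays were, and the tissues did not overlap. Esophageal organoids averaged 11.79 ± 0.54 and stomach organoids 4.71 ± 0.08 (SD, n = 3 each), which puts *Stfa3* at least 128-fold higher in esophageal organoids. Here and below, a bound of this kind sets the mean of the bright tissue against the mean over the dim arrays of whichever is higher on each, the probe's own signal or the lowest signal that counted as well above background there. The log2 fold change was 7.08 (standard error, SE, 0.26, 95% interval 6.47 to 7.69, limma adjusted p = 1.87e-06). It ranged from 5.78 with a normexp offset of 50 to 10.22 with the processed signal at 75th percentile scaling. The bound holds for the reported values only. The *Gm5483* probe, which shares 22 bases with the *Stfa3* probe, read 4.88 to 5.47 in the esophagus and 4.75 to 5.25 in the stomach and never rose well above background. The *BC100530* probe, which matches that of *Stfa3* at 35 of 41 bases, read 13.81 to 14.85 in the esophagus. The part of its transcripts in the *Stfa3* signal was not tested.

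*Cstb*, the stefin of most cell types, was bright in both tissues and brighter in the esophagus. Its probe (NM_007793, chr10:77890058-77890117 in mm9) read 12.34, 12.38 and 12.42 in the stomach organoids of mice 1, 2 and 4 and 15.21, 14.69 and 15.11 in the esophageal ones. The stomach arrays were within 0.04 (SD) of their mean of 12.38, and the lowest esophagus array, mouse 2, stood well above them. The esophagus mean was 15 ± 0.27 (SD, n = 3), a log2 fold change of 2.62 (SE 0.17, 95% interval 2.22 to 3.02, limma adjusted p = 4.66e-05), or 6.16-fold.

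*Stfa1* was measured by 2 probes that did not give the same result. The first (NM_001082543) read 4.92, 4.60 and 4.83 in stomach organoids and 5.72, 6.78 and 5.63 in esophageal organoids, in the order of mice 1, 2 and 4. It was well above background on the 3 esophagus arrays and on no stomach array, and mouse 2 was the highest. It passed toward the esophagus, at least 2.21-fold (log2 fold change 1.26, SE 0.30, limma adjusted p = 0.0338). With the mouse as a block the call was lost (limma adjusted p = 0.0595), as it was without stomach replicate 1, 2 or 4 (limma adjusted p = 0.0983, 0.135 and 0.0656). The second probe, named for the transcript ENSMUST00000042097 and placed at chr16:36280686-36280745 in mm9, stayed at background on all 6 arrays. It read 4.69 to 4.95 in the stomach and 4.80 to 4.92 in the esophagus (log2 fold change 0.06, 95% interval -0.28 to 0.39, limma adjusted p = 0.878).

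*Stfa2* was not called. Its probe (NM_001082545) gave a signal over background on all 6 arrays, at 9.78, 9.32 and 8.92 in the stomach organoids of mice 1, 2 and 4 and 9.11, 9.55 and 7.97 in the esophageal ones. The tissues overlapped, and mouse 4 was the lowest of each. The log2 fold change was -0.47 (SE 0.40, limma adjusted p = 0.571), with a 95% interval of -1.40 to 0.47. Without esophagus replicate 4 the log2 fold change was -0.02.

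Of the secreted cystatins, *Cst6* was high in esophageal organoids and near background in stomach organoids. Its probe (NM_028623, chr19:5347982-5348041 in mm9) read 4.91, 5.03 and 5.62 in the stomach organoids of mice 1, 2 and 4 and 9.90, 12 and 10.05 in the esophageal ones. The esophageal organoids of mouse 2 stood above those of mice 1 and 4, and the SD of 1.17 around the esophagus mean of 10.65 was the largest of the member probes in either tissue. In the stomach (5.19 ± 0.38, SD, n = 3) 1 of 3 arrays was well above background. The log2 fold change was 5.46 (SE 0.53, 95% interval 4.23 to 6.70, limma adjusted p = 0.000383), a value that rests on stomach arrays at or near background. Without esophagus replicate 2 it was 4.79. It ranged from 4.49 with a normexp offset of 50 to 7.77 with the processed signal at 75th percentile scaling.

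*Cst3*, which encodes cystatin C, went the other way by a small margin. Its probe (NM_009976, chr2:148697681-148697740 in mm9) read 14.38, 14.22 and 13.99 in the stomach organoids of mice 1, 2 and 4 and 13.26, 13.38 and 13.73 in the esophageal ones. The tissues did not overlap, but mouse 4 had the lowest stomach and the highest esophagus value and brought them close. Stomach organoids were at 14.19 ± 0.20 and esophageal organoids at 13.46 ± 0.24 (SD, n = 3 each), so that the level in the stomach was 1.67-fold that in the esophagus (log2 fold change -0.74, SE 0.18, limma adjusted p = 0.0384). With the mouse as a block the call was lost (limma adjusted p = 0.0938). It was also lost without stomach replicate 1 or 2 or esophagus replicate 1 or 2 (limma adjusted p = 0.156, 0.13, 0.0968 and 0.116) and with the Feature Extraction processed signal at 75th percentile scaling, a setting that changes the background correction and the scaling together (log2 fold change -0.45, limma adjusted p = 0.543) and in which the median of all probes was 0.19.

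The esophagus array of mouse 4 was on a slide of its own, and the other 5 arrays shared a slide. Within the shared slide, which is also the fit with slide as a block, the log2 fold changes were 2.57 for *Cstb*, -0.87 for *Cst3*, 6.91 for *Stfa3*, 5.77 for *Cst6* and 1.47 for the first *Stfa1* probe, and these 5 calls held there.

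**Figure D2:**
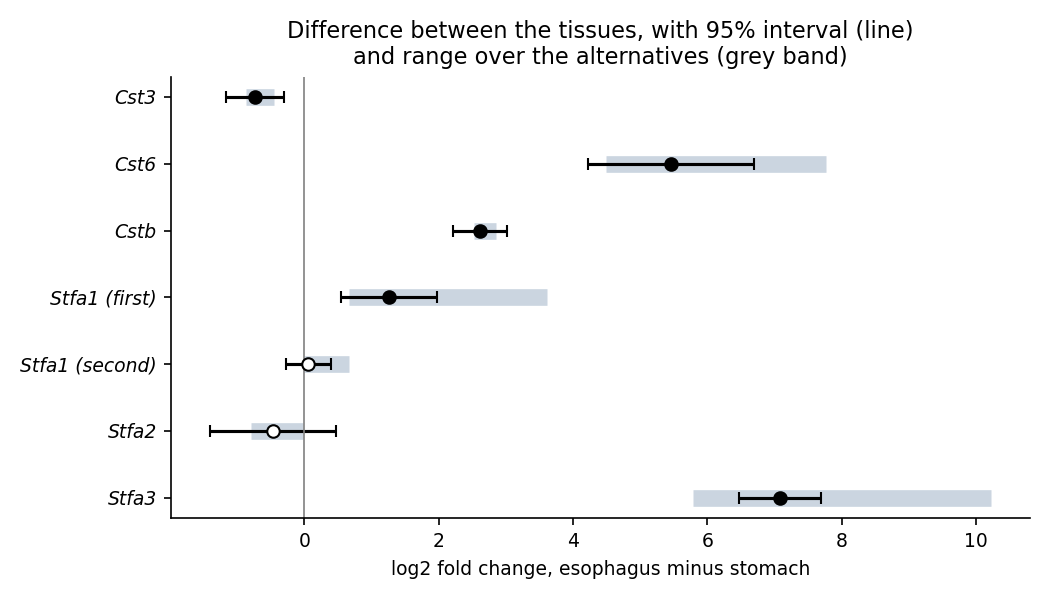
Points are log2 fold changes (esophagus minus stomach) of the member probes, filled where called and open where not; lines are 95% intervals and grey bands the range over 15 alternative settings (14 for the second *Stfa1* probe, which the filter on dim probes removed). The ranges were 5.78 to 10.22 for *Stfa3*, 4.49 to 7.77 for *Cst6*, 2.52 to 2.85 for *Cstb*, 0.66 to 3.61 for the first *Stfa1* probe, -0.87 to -0.45 for *Cst3*, -0.80 to -0.02 for *Stfa2* and -0.01 to 0.66 for the second *Stfa1* probe. The 0.66 of both *Stfa1* probes is the mean of the pair, from the setting that averages the probes of a gene, and without that setting the first lay at 0.80 or above and the second at 0.22 or below.

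Of the other genes of the stefin cluster, some rose steeply in the esophagus and others were not called. In mm9 the array had 13 probes under 12 names between 36120084 and 36450752 on chromosome 16, a span of 330.7 kb, and 6 of them were called higher in esophageal organoids, while 0 were called lower there (0 also at an unadjusted p under 0.05, limma), against the 5.94% and 6.22% of all probes given above. Another 6 were not well above background on any array. By RefSeq accession, *BC100530* is now *Cstdc5*, *2010005H15Rik* is *Csta2*, *Gm5483* is *Cstdc4* and *Gm5416* is *Csta3*, all stefin A-like genes. *BC100530* read 4.91, 5.03 and 5.07 in the stomach organoids of mice 1, 2 and 4 and 13.81, 14.85 and 14.48 in the esophageal ones. Only its esophagus arrays were above background, and it was at least 665-fold higher there (log2 fold change 9.38, SE 0.26, limma adjusted p = 4.36e-07). *2010005H15Rik*, on 10 spots per array, rose at least 13.5-fold (log2 fold change 3.81, limma adjusted p = 4.7e-05). *Stfa2l1* and ENSMUST00000077110.4 rose at least 5.18-fold and 5.65-fold (limma adjusted p = 0.00159 and 0.000404). All 4 were called in every alternative setting, but the log2 fold changes ranged from 8.23 to 12.38 for *BC100530*, 2.72 to 6.68 for *2010005H15Rik*, 1.65 to 4.99 for *Stfa2l1* and 1.68 to 5.31 for ENSMUST00000077110.4, lowest with an offset of 50 and highest with the processed signal at 75th percentile scaling. These 4 probes are the partners of the shared runs shown above, *BC100530* with *2010005H15Rik* and *Stfa2l1* with ENSMUST00000077110.4, and what part one transcript had in the signal of its partner's probe was not tested. *Csta1*, *Gm5483*, *Gm5416*, *BC117090* and ENSMUST00000232642.1 were not called, with log2 fold changes of 0.11 to 0.55, and lay between called probes or at the edge of the cluster. The tissues did not overlap for *Gm5416* (log2 fold change 0.55, limma adjusted p = 0.0535), which passed with the processed signal at 75th percentile scaling, trend and robust variances or probes averaged (limma adjusted p = 0.0234, 0.0451 and 0.0351).

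**Figure D3:**
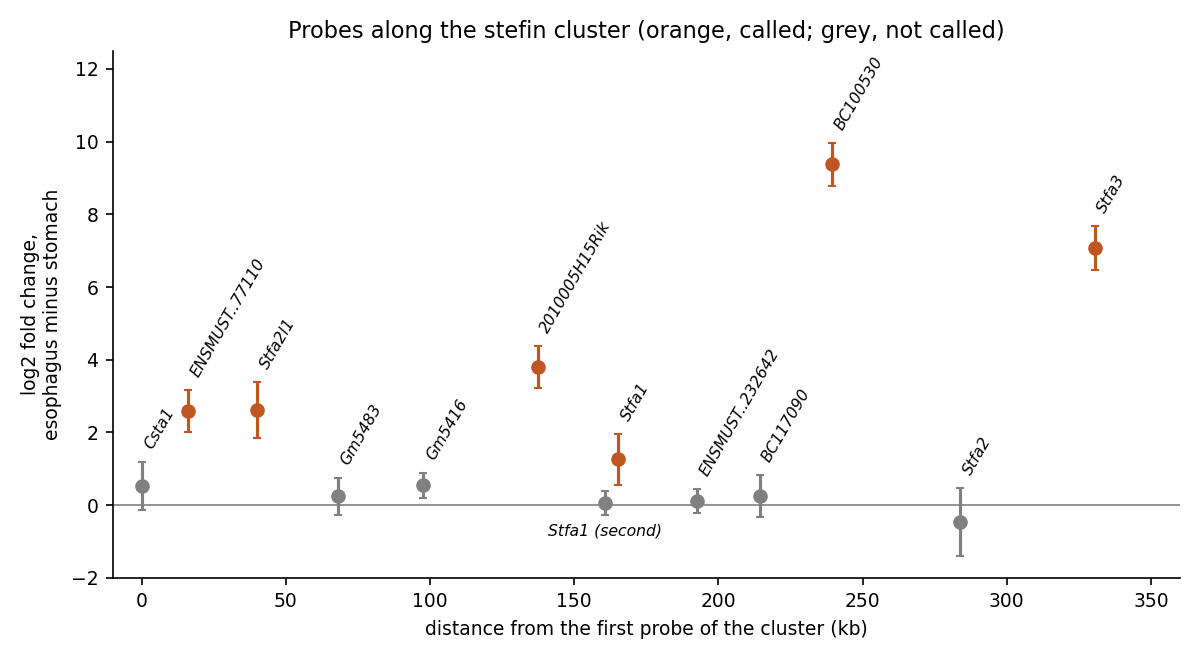
The log2 fold change (esophagus minus stomach) of each of the 13 probes of the stefin cluster with its 95% interval, by distance in kb from the first probe; called probes are orange and the others grey. The called probes, all at background in the stomach, do not form 1 block, and the uncalled *Stfa2* lies between *BC100530* and *Stfa3*.

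The unequal behaviour of neighbouring genes was set beside their upstream sequences. RefSeq promoters (GRCm38.p6) were at hand for *Cst3*, *Stfa1*, *Stfa2* and *Stfa3* among the members and for several other genes of the cluster. The 250 bases before the start are shown for the stefin members and for *Cstdc5* (*BC100530*), on the strand of the gene, 5′ to 3′, with TTTAAA in capitals.
Stfa3, chr16:36455393-36455642, minus strand: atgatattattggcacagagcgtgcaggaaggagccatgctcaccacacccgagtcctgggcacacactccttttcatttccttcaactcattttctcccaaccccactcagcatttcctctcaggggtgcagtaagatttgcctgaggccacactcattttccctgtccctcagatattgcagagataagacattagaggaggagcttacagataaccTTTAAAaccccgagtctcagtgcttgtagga
Cstdc5, chr16:36367571-36367820, minus strand: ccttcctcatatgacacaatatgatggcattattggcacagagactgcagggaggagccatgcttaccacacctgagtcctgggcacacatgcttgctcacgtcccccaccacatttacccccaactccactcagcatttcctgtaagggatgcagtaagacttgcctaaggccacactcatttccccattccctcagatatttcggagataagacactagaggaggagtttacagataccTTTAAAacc
Stfa1, chr16:36276898-36277147, plus strand: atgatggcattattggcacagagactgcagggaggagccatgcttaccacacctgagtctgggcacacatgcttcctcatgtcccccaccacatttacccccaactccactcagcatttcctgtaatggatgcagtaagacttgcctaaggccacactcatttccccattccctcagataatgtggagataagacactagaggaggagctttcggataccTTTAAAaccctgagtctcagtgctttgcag
Stfa2, chr16:36408364-36408613, minus strand: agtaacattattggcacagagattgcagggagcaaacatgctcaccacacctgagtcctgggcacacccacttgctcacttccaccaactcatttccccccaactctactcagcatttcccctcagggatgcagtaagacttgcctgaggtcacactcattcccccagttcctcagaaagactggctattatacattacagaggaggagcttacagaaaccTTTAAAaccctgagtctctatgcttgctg
Over these 250 bases, *Stfa2*, which was not called, matched *Stfa3* at 203 positions (81.2%) in a global alignment, close to the 211 positions (84.4%) at which *Stfa1* matched *Stfa3*. *Cstdc5* matched *Stfa1* at 220 positions (88%) and *Stfa3* at 196 (78.4%), while *Cst3* matched *Stfa3* at 119 (47.6%). TTTAAA, chosen after the sequences had been read, starts 31 bases before the start of *Stfa3*, 30 before *Stfa1*, 29 before *Stfa2* and 9 before *Cstdc5*. It occurs in the same window of 12.1% of 32851 RefSeq promoters on either strand. Neither TATAAA (12.4% of promoters) nor TGANTCA, the letters known for AP-1 (6.75% of promoters), occurs in these 4 windows or in that of *Cst3*. Of the other called genes of the cluster, *Stfa2l1* has TTTAAA in its window and *Csta2* (*2010005H15Rik*) does not, and *Csta2* matched the 4 windows shown at 119 to 128 positions. The uncalled *Csta1*, *Cstdc4* and *Csta3* have it too. Of the 2 windows of *Cstdc3*, another gene of the cluster, 1 holds TGANTCA.

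Of 11 papain-like cathepsins and legumain, each taken by its brightest probe, 0 were called higher in the esophagus (2, *Ctsc* and *Ctsw*, at an unadjusted p under 0.05), 2 were called higher in the stomach and 9 were not called. With the mouse as a block 3 were called higher in the stomach. Over the brightest probes of all gene names, 7.15% were called toward the esophagus and 7.7% toward the stomach. The median log2 fold change was -0.32, against 0.03 over the brightest probes of all gene names. Legumain (*Lgmn*), an asparaginyl endopeptidase and a target of cystatin M/E, read 12.34, 12.34 and 11.59 in the stomach organoids of mice 1, 2 and 4 and 10.69, 10.77 and 10.72 in the esophageal ones. The tissues did not overlap, and the log2 fold change was -1.36 (SE 0.22, limma adjusted p = 0.006). Cathepsin Z (*Ctsz*), a carboxypeptidase, read 12.61, 13.01 and 12.82 in the stomach and 11.64, 11.70 and 12.16 in the esophagus. It was also called higher in the stomach (log2 fold change -0.98, limma adjusted p = 0.0149), and the call was lost without stomach replicate 2 or esophagus replicate 2 (limma adjusted p = 0.0708 and 0.058) and with the processed signal at 75th percentile scaling (limma adjusted p = 0.205). Cathepsin L (*Ctsl*), which cystatin M/E and the stefins bind, read 13.05 to 13.39 in the stomach and 14.41, 13.36 and 12.94 in the esophagus of mice 1, 2 and 4. Its log2 fold change was 0.34 (SE 0.35, limma adjusted p = 0.643), and without esophagus replicate 1 it was -0.08. Cathepsin C (*Ctsc*) had a log2 fold change of 1.09 by its brightest probe (limma adjusted p = 0.107), while its dimmer probe was called higher in the esophagus (log2 fold change 1.57, limma adjusted p = 0.048). Cathepsin H (*Ctsh*) had one of -0.70 (limma adjusted p = 0.144). Without 1 array each brightest probe passed, *Ctsc* without stomach replicate 4 (limma adjusted p = 0.0066) and *Ctsh* without esophagus replicate 1 (limma adjusted p = 0.00754).

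**Figure D4:**
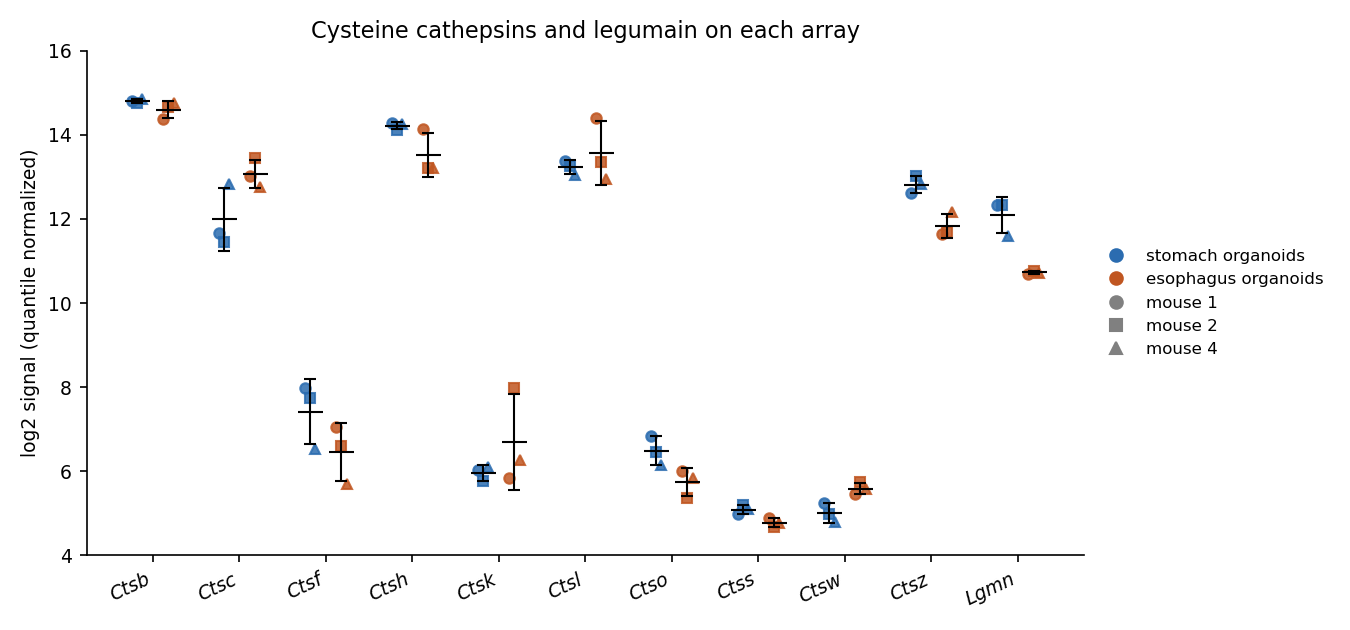
Log2 signal of the brightest probe of 10 cathepsins and legumain on each array, drawn as for the members (bars are the mean and SD of 3 arrays). The esophagus arrays lie below the stomach arrays for the called *Lgmn* (means 10.73 against 12.09) and *Ctsz* (11.83 against 12.81) and for *Ctsb*, *Ctso* and *Ctss*, and above them for *Ctsw*, but none of these last 4 was called.

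Of the 6 genes with which cystatin M/E acts in cornified epithelium, *Tgm1* and *Lor* were called higher in the esophagus, *Lgmn* was called higher in the stomach, and *Tgm3*, *Ivl* and *Ctsl* were not called by their brightest probes. Transglutaminase 1 (*Tgm1*), which cross-links envelope proteins, read 5.64, 5.22 and 6.95 in the stomach organoids of mice 1, 2 and 4 and 14.80, 13.54 and 12.36 in the esophageal ones. The tissues did not overlap (log2 fold change 7.64, SE 0.65, limma adjusted p = 0.00018). Loricrin (*Lor*), the main envelope protein of skin, read 6.58 to 7.16 in the stomach and 14.44, 16.94 and 10.38 in the esophagus (log2 fold change 6.98, limma adjusted p = 0.0152), and its call was lost without stomach replicate 1 or 2 (limma adjusted p = 0.0644 and 0.0716). Transglutaminase 3 (*Tgm3*) depended on the probe, since the brightest had a log2 fold change of -0.09 (limma adjusted p = 0.901) and a dimmer one, above background in the esophagus alone, was at least 48.6-fold higher there (limma adjusted p = 0.0025). Involucrin (*Ivl*) had a log2 fold change of 0.05 (limma adjusted p = 0.96).

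Among the esophageal organoids the members did not follow 1 order. *Stfa3*, *Cst6* and *Cst3* were lowest in mouse 1, and so were *BC100530*, *2010005H15Rik*, *Stfa2l1* and ENSMUST00000077110.4. *Cst6*, the first *Stfa1* probe, *Stfa2*, *BC100530* and *2010005H15Rik* were highest in mouse 2, as was *Lor*. *Cstb* was lowest in mouse 2. Of 7 genes of the last steps of squamous differentiation, the 4 that were called, *Sprr3*, *Crct1*, *Cnfn* and *Lor*, were lowest in mouse 4, where *Sprr3* read 11.62 against 15.62 and 15.19 in mice 1 and 2, *Crct1* 14.22 against 17.33 and 17.07, and *Cnfn* 13.83 against 17.73 and 17.44. The other 3 were not called, and *Ivl* was lowest in mouse 2 and *Flg* and *Flg2* in mouse 1. The calls of *Cnfn* and *Lor* were each lost in 4 of 15 alternative settings (limma adjusted p up to 0.106 and 0.104). With 3 arrays these orders are descriptions without a test. The first *Stfa1* probe and *Stfa2* were also lowest in mouse 4, and the uncalled *Gm5483* and *BC117090*, near background, were highest in mouse 1.

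**Figure D5:**
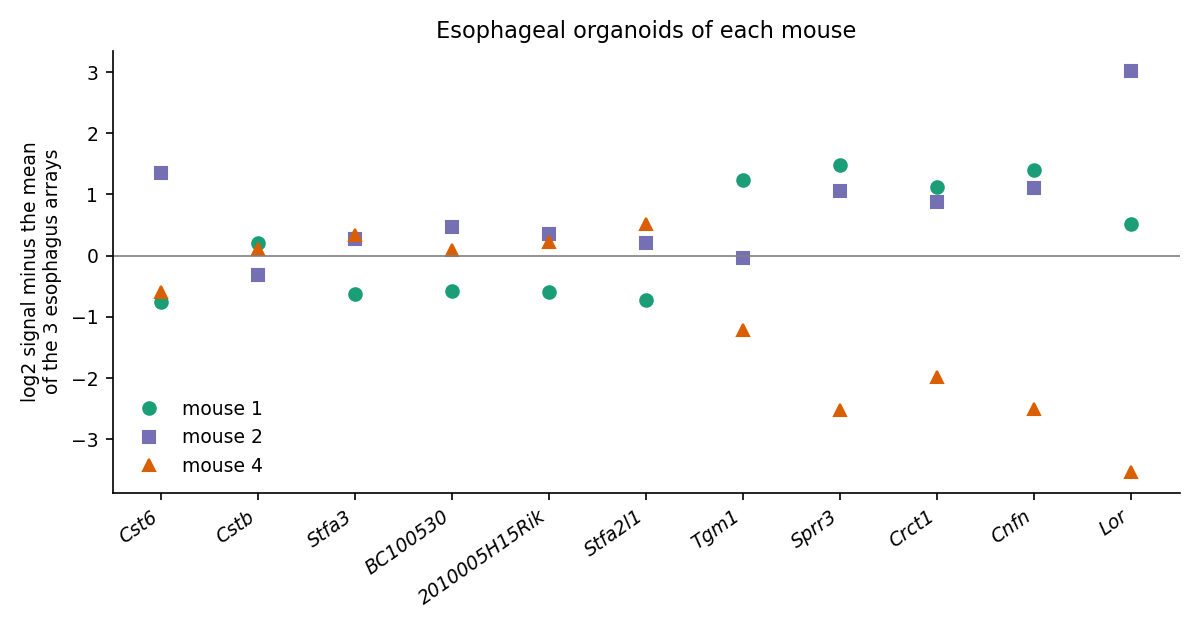
Deviation of the log2 signal on each esophagus array from the mean of the 3 esophagus arrays, for *Cst6*, *Cstb*, *Stfa3*, the called stefin A-like *BC100530*, *2010005H15Rik* and *Stfa2l1*, and envelope genes, with symbols for mice 1, 2 and 4. *Cst6*, *Stfa3*, *BC100530*, *2010005H15Rik* and *Stfa2l1* are lowest in mouse 1, and *Tgm1*, *Sprr3*, *Crct1*, *Cnfn* and *Lor* are lowest in mouse 4.

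The labelled tissues and other possible cell types were checked with marker lists. Of 7 squamous markers 6 were called higher in the esophagus, and of 9 columnar markers 8 were called higher in the stomach. The exception among the squamous markers was the brightest of 4 *Trp63* probes, called higher in the stomach (log2 fold change -1.22, limma adjusted p = 0.0249), while the other 3 *Trp63* probes were called higher in the esophagus. Leukocytes are known to carry stefins. Of 11 leukocyte markers 0 were called higher in the esophagus and 1, *Itgam*, in the stomach, and 6 of the 11 were well above background on at least 1 array. *Csf3r*, *Ltf*, *Ly6g*, *Elane* and *Itgam* were so on all 6 arrays by their brightest probe, and the other 2 *Itgam* probes on none (log2 fold changes -0.02 and -0.06). *Itgb2* was so on 2 stomach arrays. *Ptprc*, *Ngp*, *Camp* and *Cd177* were so on none by any probe, and *Mpo* by 1 of its 2 probes on 1 stomach array. The summed linear signal of the list was 18300 to 23700 in the esophagus and 27300 to 54900 in the stomach. This sum rests mostly on the brightest probes of *Csf3r*, *Ltf* and *Itgam*, of which only *Itgam* was called. Macrophages and dendritic cells are known to carry *Cst3*. Of their 8 markers on the arrays 1, *Cd14*, was called higher in the stomach. By their brightest probes, *Csf1r*, *Cd68* and *Cd14* were well above background on all 6 arrays, *C1qb* on the 3 stomach arrays, and *Adgre1*, *Lyz2*, *C1qa* and *Itgax* on none. Of the dimmer *Csf1r* probes, 1 was so on no array and 1 on 3 esophagus and 2 stomach arrays. *Cd68* was not called, and the log2 fold changes of its 2 probes were 1.63 and 1.41 (limma adjusted p = 0.211 and 0.163). The summed signal was 5720 to 7700 in the stomach and 4300 to 28700 in the esophagus. The highest sum, in the esophagus of mouse 1, rests mostly on *Cd68*, whose brightest probe read 14.77 there against 12.94 and 11.80 in mice 2 and 4. Of 6 fibroblast markers 0 were called (limma; 1, *Col1a2*, at an unadjusted p under 0.05), with a summed signal of 176 to 219 over the 6 arrays. The part of other cell types in the *Cst3* and stefin results was not tested.

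In the remaining cystatin superfamily, 20 of 25 listed genes were on the arrays. The 3 called were the stefin A-like *BC100530*, *2010005H15Rik* and *Stfa2l1*, all higher in the esophagus, where 7.15% of gene names were called by their brightest probe. With the processed signal at 75th percentile scaling, with trend and robust variances or with probes averaged, 4 were called higher there. The median log2 fold change of the 20 was 0.11. The type 2 cystatins *Cst7* to *Cst13* and *Cstl1*, many of them known from the reproductive tract or blood cells, were not well above background on any array. The secreted fetuin *Fetub* was above background on all 6 arrays at 10.67 to 12.04 in the stomach and 9.97 to 11.46 in the esophagus (log2 fold change -0.80, limma adjusted p = 0.349). Its relative *Ahsg* was above background in the stomach alone, at least 2.89-fold, without passing (limma adjusted p = 0.0691). The stomach of mouse 2 was highest, and the log2 fold change of -1.75 was -1.09 without it. *Ahsg* passed in 5 of 15 alternative settings, among them without stomach replicate 2 or 4 (limma adjusted p = 0.036 and 0.0198).

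For each member, the genes with the most similar profile over the 6 arrays were found among 14545 candidates, by the root mean square difference in log2 after each profile was centred. For *Stfa3* they were *Wnt4* (0.256), *Fscn1* (0.268) and *Lzts1* (0.332), against a median of 3.54 over the candidates. For *Cst6* they were *Hspb8* (0.279), *Thbd* (0.363) and *Defb4* (0.438), against 2.82. For *Cstb* they were *Ccdc3* (0.065), *Fam102b* (0.156) and *Car13* (0.161), against 1.34. *Stfa1* was nearest to *Olfr700* (0.077), *Cst3* to *Man1b1* (0.046) and *Stfa2* to *Gm10657* (0.09), against medians of 0.81, 0.59 and 0.76. The nearest genes lie below these medians because they were picked as the nearest, so the medians only give the scale of the distances.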

How the data were processed

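Per the labels and the methods, total RNA was labelled with Cy3 and hybridized to single-color Agilent 8x60K mouse arrays, read with Agilent Feature Extraction (version 11.5.1.1), and the deposited scanner files give the raw intensity of each spot and its flags. The authors' deposited table holds log2 values that they background corrected and quantile normalized. Normexp with an offset of 15 followed by quantile normalization rebuilt them with a median absolute difference of 0.00433, and their empty cells were the spots marked as outliers.

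Log2 values were averaged per probe and compared with lmFit and eBayes (limma 3.58.1 in R 4.3.3) using all 6 arrays and no block, with p-values adjusted over 55681 probes (Benjamini-Hochberg) and a call at an adjusted p under 0.05. The methods name p under 0.05 and 1.5-fold without saying whether p was adjusted. A probe counted as well above background where over 0.5 of its spots were marked so. Between 45.5% and 51.1% of non-control spots were, none was saturated, and the number of arrays limits the precision. The script was tested on simulated data. Promoters were aligned with Biopython 1.88.

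Mouse numbers in the labels pair the tissues of an animal. After the tissue mean of each probe was taken off, the arrays of mice 1, 2 and 4 correlated between tissues with r = 0.025, 0.012 and -0.008 over probes. Alternatives were other background corrections and scalings, a filter on dim probes, the mouse or slide as a block, eBayes with trend, unadjusted p with 1.5-fold, averaged probes and each array left out. The members and gene lists were chosen with earlier results of these data known. Named genes were the members, the called or measured genes of the fixed lists, the other probes of the stefin cluster, and 3 genes most like each member.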

Additional observations from a re-analysis of the deposited data

How the results depend on the processing

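Over 15 alternative settings, *Cstb*, *Cst6* and *Stfa3* were called higher in the esophagus in every one, and the number of member probes called higher in the esophagus was 3 or 4. The single member called higher in the stomach, *Cst3*, was not called with the processed signal at 75th percentile scaling (which changes background correction and scaling together) or with the mouse as a replicate block (0 members each), and leaving out each array gave 0 to 1. The first *Stfa1* probe lost its call with an offset of 50 (log2 fold change 0.80), with probes averaged (0.66), under the block and without any 1 stomach array. The block changed no other call of a member. Without stomach replicate 1 the second *Stfa1* probe had a log2 fold change of -0.01 (-0.01 to 0.13 with an array left out). Of the remaining cystatin genes, 1 was called higher in the stomach with the processed signal, the dim filter or unadjusted p with 1.5-fold (0 to 2 with an array left out). Among cathepsins, the processed signal gave 1 toward the esophagus and 1 toward the stomach, and the mouse as a block 0 and 3. Unadjusted p with 1.5-fold gave 1 and 4, and leaving out arrays 0 to 1 and 1 to 3. Of the cystatin M/E genes 1 was called higher in the esophagus with an offset of 50 or with trend and robust variances (1 to 2 with an array left out). With probes averaged 3 were, and *Tgm3* passed there (limma adjusted p = 0.00636). Over all probes, unadjusted p with 1.5-fold called 5168 higher in the esophagus, and leaving out arrays gave 1794 to 3500 toward the esophagus and 2297 to 3915 toward the stomach, fewest in both directions without stomach replicate 1. Directions of genes not called as reported turned for *Ctsb* (0.08 with the processed signal) and *Ctsl* (-0.08 without esophagus replicate 1, -0.08 to 0.65 with an array left out). That of *Tgm3* turned too (0.28 without stomach replicate 4, -0.29 to 0.28 with an array left out, 2.79 and called with probes averaged). So did that of *Ivl* (-0.09 with the processed signal or slide as a block, and -0.18 to 0.41 with an array left out, negative without stomach replicate 1 or esophagus replicate 1 or 4). The causes of these changes were not tested. Signal near background limits *Stfa1*, *Stfa3* and *Cst6* in stomach organoids, where no array, or for *Cst6* 1 of 3, was well above background, and with 3 arrays a tissue an exact permutation test cannot go below p = 0.1.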
